A study of Mus musculus with 36 samples.

Results

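Carboxylesterases are serine hydrolases of the endoplasmic reticulum that cleave ester, thioester and amide bonds in drugs, pesticides and lipids. The 9 genes described here, Ces1d, Ces1e, Ces1f, Ces1g, Ces2a, Ces2b, Ces2c, Ces2e and Ces2g, were taken by symbol from the 55536 genes of the count files. Of these 9, 8 passed the expression filter, and each of the 8 had at least 2.37 CPM (counts per 1000000 counted reads, after scaling) in every library. Ces2a did not pass and was given no test.

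The study sequenced mRNA from kidneys of 2 kinds of mice, called ob (ob/ob mice, strain label C57BL/6) and b6j (C57BL/6), after cadmium chloride (CdCl2) at 0, 0.5 or 2 mg/kg. Each of the 6 groups held 6 libraries: ob controls, ob at 0.5 mg/kg, ob at 2 mg/kg, b6j controls, b6j at 0.5 mg/kg and b6j at 2 mg/kg. The ob/ob mouse lacks functional leptin in all its tissues and is obese, so the ob and b6j mice differ in adiposity and metabolic state as well as in the leptin gene. The labels call the controls untreated, give neither age, sex, route nor duration, and do not say whether replicates share a litter, cage or batch, so p-values measure the spread between these libraries.

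In mouse liver and intestine, carboxylesterases of the Ces1 and Ces2 groups clear ester drugs and take part in the breakdown and mobilisation of stored triacylglycerol, and kidney proximal tubule cells also make several of them. The mouse Ces1 and Ces2 genes lie in tandem rows that arose by duplication. Their transcripts are partly alike, which matters for how a short read is assigned. The catalytic serine of the family lies in a short conserved peptide rich in glycine.

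All 9 genes lie on mouse chromosome 8 (GRCm38). The Ces1 genes lie on the minus strand: Ces1d (ENSMUSG00000056973) at chr8:93166068-93197838, Ces1e (ENSMUSG00000061959) at chr8:93201218-93229619, Ces1f (ENSMUSG00000031725) at chr8:93256236-93279747 and Ces1g (ENSMUSG00000057074) at chr8:93302369-93337308. The Ces2 genes lie on the plus strand: Ces2a (ENSMUSG00000055730) at chr8:104734003-104741634, Ces2b (ENSMUSG00000050097) at chr8:104831572-104840093, Ces2c (ENSMUSG00000061825) at chr8:104847068-104854483, Ces2e (ENSMUSG00000031886) at chr8:104926260-104934672 and Ces2g (ENSMUSG00000031877) at chr8:104961718-104969537. No exon of these 9 genes overlaps an exon of another gene in the annotation.

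The stretch of coding sequence around the catalytic serine is given for 5 genes, to show how far a Ces1 read can be told from a Ces2 read and how little separates Ces2b from Ces2c. Each line holds 60 bases of the longest open reading frame of the annotated transcript, 5′ to 3′ on the coding strand, with the 17 matched bases of the codons around the catalytic serine in capitals.
Ces1d: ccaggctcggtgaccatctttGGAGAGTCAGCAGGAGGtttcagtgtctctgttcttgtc
Ces1g: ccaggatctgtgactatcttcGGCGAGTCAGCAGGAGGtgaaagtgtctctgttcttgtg
Ces2b: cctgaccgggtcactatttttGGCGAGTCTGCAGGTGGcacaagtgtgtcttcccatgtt
Ces2c: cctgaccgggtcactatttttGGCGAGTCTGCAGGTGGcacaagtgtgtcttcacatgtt
Ces2e: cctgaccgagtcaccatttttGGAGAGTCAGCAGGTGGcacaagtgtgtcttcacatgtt

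Ces2b and Ces2c differed at 1 of these 60 bases and Ces2c and Ces2e at 4, whereas Ces1g and Ces2c differed at 20. Over whole transcripts, Ces2c shared 42.2% of its 50-base windows exactly with another gene, mostly the pseudogene Ces2d-ps. The share was 22.2% for Ces2a, 9.79% for Ces2b, and between 1.28% (Ces1d) and 4.02% (Ces2g) for the other 6. Counts of Ces2a, Ces2b and Ces2c are therefore uncertain to the extent that reads from shared stretches were split or dropped, and the file headers give no option for reads that map to several places.

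RefSeq promoters (GRCm38.p6, from 250 bases before to 50 bases after the transcript start) were found for 6 of the 9 genes. Those of Ces1g, Ces2c and Ces2e are given because Ces1g and Ces2e were called higher at 2 mg/kg in both kinds of mice and Ces2c in ob, not in b6j. The Ces1g window is chr8:93337160-93337459 on the minus strand, the Ces2c window chr8:104846818-104847117 on the plus strand, and the Ces2e window chr8:104926010-104926309 on the plus strand. Capitals mark the only match in these 3 windows to any motif searched.
Ces1g promoter: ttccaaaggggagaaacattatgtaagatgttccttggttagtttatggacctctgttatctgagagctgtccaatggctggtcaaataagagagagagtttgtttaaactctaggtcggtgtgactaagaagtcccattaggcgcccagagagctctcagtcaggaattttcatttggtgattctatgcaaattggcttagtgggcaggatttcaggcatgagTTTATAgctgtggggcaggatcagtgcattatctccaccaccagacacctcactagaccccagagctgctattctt
Ces2c promoter: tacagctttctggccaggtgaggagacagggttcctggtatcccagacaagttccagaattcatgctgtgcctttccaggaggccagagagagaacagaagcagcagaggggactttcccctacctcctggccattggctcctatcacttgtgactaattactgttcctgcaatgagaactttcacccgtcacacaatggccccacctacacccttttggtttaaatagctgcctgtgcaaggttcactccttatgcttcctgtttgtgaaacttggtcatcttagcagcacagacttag
Ces2e promoter: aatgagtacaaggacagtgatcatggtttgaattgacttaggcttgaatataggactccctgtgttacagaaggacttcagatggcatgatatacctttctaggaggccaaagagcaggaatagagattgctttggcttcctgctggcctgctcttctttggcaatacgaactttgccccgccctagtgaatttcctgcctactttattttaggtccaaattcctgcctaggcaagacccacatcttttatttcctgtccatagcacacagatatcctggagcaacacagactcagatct

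The windows were searched on both strands for 6 motifs, and the share of 32851 RefSeq promoters of the same length that hold each is given beside it. The antioxidant response element core was written TGACNNNGC, found in 12.4% of promoters. The AP-1 motif was TGANTCA, found in 7.81%, and a match of it can overlap one of the antioxidant core. For the metal response element core either TGCACNC or, with a G in the middle, TGCGCNC counted, and 25.7% held it. The HNF1 core was GTTAAT (7.1%), the nuclear receptor core was AGGTCA (16.3%) and the TATA box was TATAAA (13.6%). Among the 6 promoters found, Ces1g held TATAAA on the opposite strand, with its first base at -26 from the start, and Ces2a held AGGTCA at -226. The annotated Ces1g gene begins at 93337308, upstream of this RefSeq start, so the match lies inside the annotated gene. No other match lay in these 6 windows.

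Library totals ran from 26783936 to 37244058 reads counted on genes. Mt1, the metal-binding metallothionein 1, was higher in every cadmium group (log2 change 5.31 ± 0.16 SE at 2 mg/kg in ob), and Lep, the leptin gene, was 5.47 ± 1.17 higher (log2) in ob controls than in b6j controls (adjusted p = 0.000929). Kidney markers were present in every library: no marker of the proximal tubule, the segment that takes up filtered cadmium, was at 0. Replicate 5 of the ob 2 mg/kg group stood apart on the first 2 principal components. Its 10 proximal tubule markers summed to 1681 CPM, against 10234 to 13826 CPM in the other 5 libraries of its group, and its 5 injured tubule markers to 13494 CPM, against 1686 to 3164 CPM. Replicate 5 of the b6j 2 mg/kg group had raised hepatocyte transcripts, with Alb (albumin) at 765 CPM against 19.6 to 29.3 CPM in the other 5.

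Across groups, the proximal tubule sum ran from 14490 to 17725, 15906 to 19024 and 1681 to 13826 CPM in ob at 0, 0.5 and 2 mg/kg, and from 19810 to 22041, 19875 to 24195 and 11747 to 16120 CPM in b6j. At 2 mg/kg, 4 of its 10 markers were called lower in ob and 1 in b6j, where 18% and 11.4% of all genes were called lower. Without replicate 5 of the ob 2 mg/kg group these counts were 5 and 8. The list of 8 markers of the S3 segment, the last stretch of the proximal tubule, had 6 lower in ob and 4 lower in b6j at 2 mg/kg. The injured tubule sum ran from 717 to 1025, 962 to 1258 and 1686 to 13494 CPM in ob and from 397 to 654, 538 to 1091 and 1357 to 1537 CPM in b6j, with all 5 markers called higher in ob at 2 mg/kg and 4 of 5 in b6j. In whole kidney RNA, fewer cells of a type and less RNA per cell cannot be told apart, and the part of these shifts in the carboxylesterase results was not tested.

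Of the other marker lists at 2 mg/kg, distal nephron and collecting duct had 7 of 8 genes called lower in ob and 2 of 8 in b6j, podocyte 4 of 5 lower in ob and none in b6j, and endothelial 4 of 4 lower in ob and none in b6j. Among all genes 20.4% were called higher and 18% lower in ob, and 12.3% and 11.4% in b6j. Macrophage had 5 of 6 higher and 1 lower in ob, and 4 of 6 higher in b6j. Red blood cell had 3 of 5 lower in ob and none in b6j. Fat cell had none in ob and 3 of 8 higher in b6j, and of the adrenal cortex genes, 2 of 5 were tested, with 1 higher in ob and 2 in b6j. The adrenal cortex sum in b6j at 2 mg/kg had a median of 4.28 CPM and a maximum of 102 CPM, against 3.26 to 4.67 CPM in b6j controls. The b6j calls therefore do not describe the whole group. Hepatocyte had 1 of 10 higher and 2 lower in ob, and 3 higher and 2 lower in b6j, with summed levels of 1153 to 1610, 1122 to 1570 and 298 to 1144 CPM in ob at 0, 0.5 and 2 mg/kg and 1880 to 2353, 1720 to 2472 and 705 to 2314 CPM in b6j. With replicate 5 of the ob 2 mg/kg group left out, endothelial had 2 lower in ob and 1 in b6j, distal nephron 5 and 4, and red blood cell 4 and 2. Without both replicate 5 libraries of the 2 mg/kg groups, hepatocyte had 2 higher and 2 lower in b6j.

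The carboxylesterases did not move as a block with cadmium. Ces1g and Ces2e rose about an order of magnitude at 2 mg/kg in both kinds of mice, Ces2g rose by less, and Ces1d fell. Ces2c and Ces2b rose in ob only among the calls, and tests of the difference between the ob and b6j responses passed for both at 2 mg/kg. Ces1f was called lower at 2 mg/kg in b6j, and Ces1e was called in no comparison. In ob, 4 of the 8 tested members were called higher and none lower at 0.5 mg/kg, where 3.55% of all 18180 genes tested were called higher and 0.737% lower (edgeR quasi-likelihood test, Benjamini-Hochberg adjusted p under 0.05). At the higher dose in ob, 5 were higher and 1 lower, where 20.4% of all genes were called higher and 18% lower.

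In b6j, 3 of the 8 tested members were higher and none lower at 0.5 mg/kg, where 0.297% of genes were called higher and 0.0275% lower. At 2 mg/kg, 3 were higher and 2 lower, against 12.3% of genes called higher and 11.4% lower. The step from 0.5 to 2 mg/kg gave 4 higher and 1 lower in ob, with 15.2% of genes called higher and 14.5% lower. The same step gave 2 higher and 2 lower in b6j, with 8.78% of genes called higher and 8.51% lower. The median log2 change of the 8 was 0.83 at 0.5 mg/kg and 1.33 at 2 mg/kg in ob, and 0.08 at both doses in b6j, while the median over all genes tested lay between -0.01 and 0.028 in every comparison. Without replicate 5 of the ob 2 mg/kg group, the numbers of members called in the 2 doses over controls were 6 and 6 for ob and 3 and 5 for b6j. Leaving it out also changed the number of genes called, which was then 1780 and 6989 of 18380 for ob (779 and 6975 of 18180 with it) and 157 and 6388 for b6j (59 and 4305 with it).

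**Figure D1:**
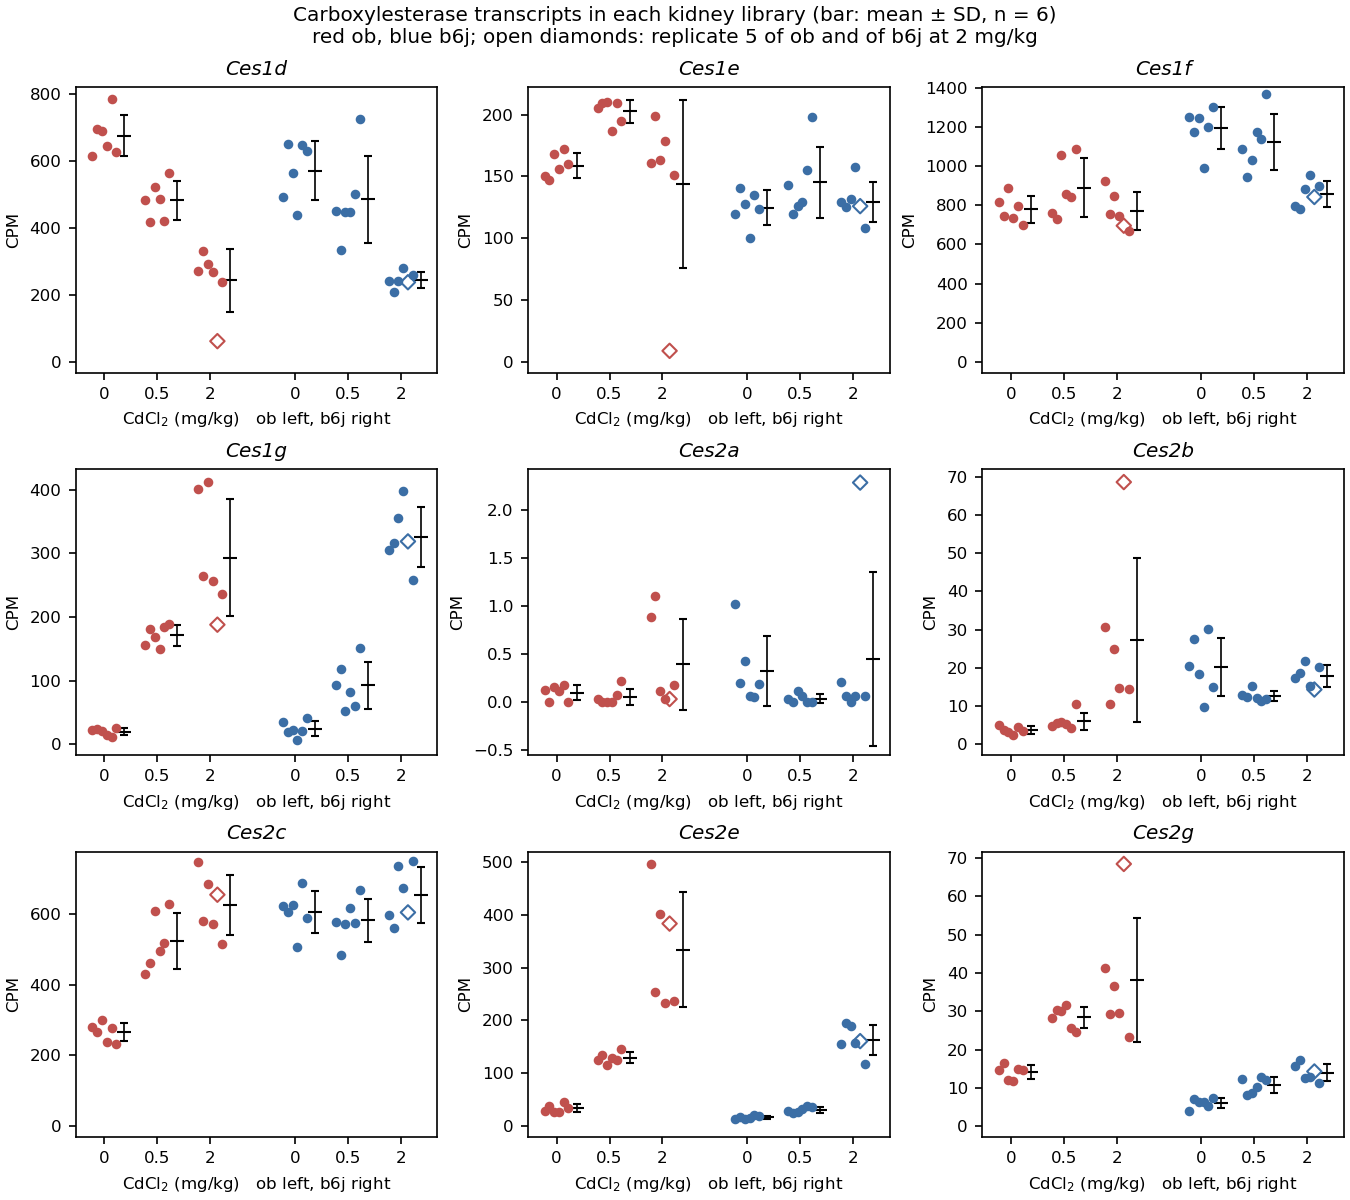
CPM of the 9 carboxylesterases in every library (y axis, 1 panel per gene) at 0, 0.5 and 2 mg/kg CdCl2 (x axis), with ob at left in red and b6j at right in blue; bars are the mean ± SD of 6 libraries and open diamonds mark replicate 5 of each 2 mg/kg group. Ces1g and Ces2e climbed with dose in both, Ces1d declined, and the ob 2 mg/kg diamond lay far below its group for Ces1d (62.2 CPM) and Ces1e (9.09 CPM) and above it for Ces2b (68.6 CPM).

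Of the 4 Ces1 genes among the 9, Ces1g, an esterase that in mouse liver bears on lipid handling, changed most at 2 mg/kg. Its ob libraries held 11.1 to 25.3 CPM (median 21.4) without cadmium, 149 to 189 CPM (median 174) at 0.5 mg/kg and 188 to 412 CPM (median 261) at 2 mg/kg. Its b6j libraries held 7.14 to 41.4 CPM (median 22.1), 51.7 to 151 CPM (median 87.6) and 259 to 399 CPM (median 317). Every treated library of both kinds lay above every control of its kind, and within ob the 0.5 and 2 mg/kg libraries met only near 188 CPM, where the lowest 2 mg/kg library was replicate 5.

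Ces1g rose 8.65-fold (log2 change 3.11 ± 0.29 SE, adjusted p = 7.09e-10) at 0.5 mg/kg and 14.8-fold (3.89 ± 0.30, adjusted p = 1.6e-12) at 2 mg/kg in ob. In b6j it rose 3.81-fold (1.93 ± 0.27, adjusted p = 4.41e-05) at 0.5 mg/kg and 13.4-fold (3.74 ± 0.29, adjusted p = 5.36e-12) at 2 mg/kg. The step from 0.5 to 2 mg/kg was 1.72-fold in ob (adjusted p = 0.0236) and 3.51-fold in b6j (adjusted p = 7.99e-06). The ob step missed the threshold without replicate 1 (log2 0.67, adjusted p = 0.0626) or replicate 3 (0.66, adjusted p = 0.065) of the ob 2 mg/kg group.

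At 0.5 mg/kg Ces1g was 1.84-fold higher in ob than in b6j (log2 0.88 ± 0.26, adjusted p = 0.0266). That call was lost on leaving out replicate 5 or 6 of the ob group or replicate 3, 4 or 5 of the b6j group at that dose (log2 0.76 to 0.85, adjusted p 0.0504 to 0.082). The difference between the ob and b6j responses at 0.5 mg/kg was 1.18 ± 0.38 and missed the threshold (adjusted p = 0.229), although limma-voom with sample weights called it (1.34, adjusted p = 0.015).

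Ces1d, a triacylglycerol hydrolase known from mouse liver and fat, declined with dose. Its ob libraries held 616 to 784 CPM (median 667) without cadmium, 417 to 565 CPM (median 485) at 0.5 mg/kg and 62.2 to 330 CPM (median 271) at 2 mg/kg, where replicate 5 gave the 62.2 and the other 5 gave 238 to 330 CPM. Its b6j libraries held 440 to 652 CPM (median 597), 335 to 726 CPM (median 451) and 208 to 282 CPM (median 241). All treated ob libraries lay below all ob controls at both doses, while in b6j the 0.5 mg/kg libraries overlapped the controls and the 2 mg/kg libraries did not.

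Ces1d at 2 mg/kg fell 2.77-fold in ob (log2 -1.47 ± 0.21, adjusted p = 8.94e-07) and 2.33-fold in b6j (-1.22 ± 0.21, adjusted p = 2.88e-05). The difference between these responses was -0.25 ± 0.29 (adjusted p = 0.702). At 0.5 mg/kg in ob the change of -0.49 ± 0.20 missed the threshold (adjusted p = 0.213) although no library overlapped. Without replicate 5 of the ob 2 mg/kg group it was -0.50 and passed (adjusted p = 0.00416). Ces1d moved in the direction of the proximal tubule sum at 2 mg/kg in both kinds of mice, and the part of that sum in its fall was not tested.

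Ces1f, a mouse liver lipase of the same group, held 698 to 887 CPM (median 771), 728 to 1088 CPM (median 852) and 667 to 927 CPM (median 750) in ob at 0, 0.5 and 2 mg/kg. Its b6j libraries held 993 to 1305 CPM (median 1223), 943 to 1369 CPM (median 1113) and 780 to 954 CPM (median 863). Its ob libraries overlapped at all doses, whereas every b6j library at 2 mg/kg lay below every b6j control. It fell 1.39-fold in b6j at 2 mg/kg (log2 -0.48 ± 0.10, adjusted p = 0.000368), while the change in ob was -0.01 ± 0.10 (adjusted p = 0.933). The difference between the responses was 0.46 ± 0.14 and missed the threshold narrowly (adjusted p = 0.0689). DESeq2 (adjusted p = 0.0177) and limma-voom (adjusted p = 0.0095) called it, and edgeR called it when any of 6 single libraries was left out (0.49 to 0.52, adjusted p 0.0215 to 0.047), replicate 5 of the ob 2 mg/kg group among them.

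Ces1e, known as egasyn because it holds beta-glucuronidase in the endoplasmic reticulum, was called in no comparison over all 36 libraries. The ob libraries held 147 to 172 CPM (median 158), 187 to 210 CPM (median 207) and 9.09 to 199 CPM (median 162), against 100 to 141 CPM (median 126), 120 to 198 CPM (median 136) and 108 to 158 CPM (median 127) in b6j. All 6 ob libraries at 0.5 mg/kg lay above all ob controls, and all ob controls lay above all b6j controls. Neither difference was called (0.35 ± 0.29, adjusted p = 0.649, and 0.35 ± 0.29, adjusted p = 0.467). The 9.09 CPM belonged to replicate 5 of the ob 2 mg/kg group, against 151 to 199 CPM in the rest of that group, and without it both were called (0.34, adjusted p = 0.0124, and 0.35, adjusted p = 0.00418).

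**Figure D2:**
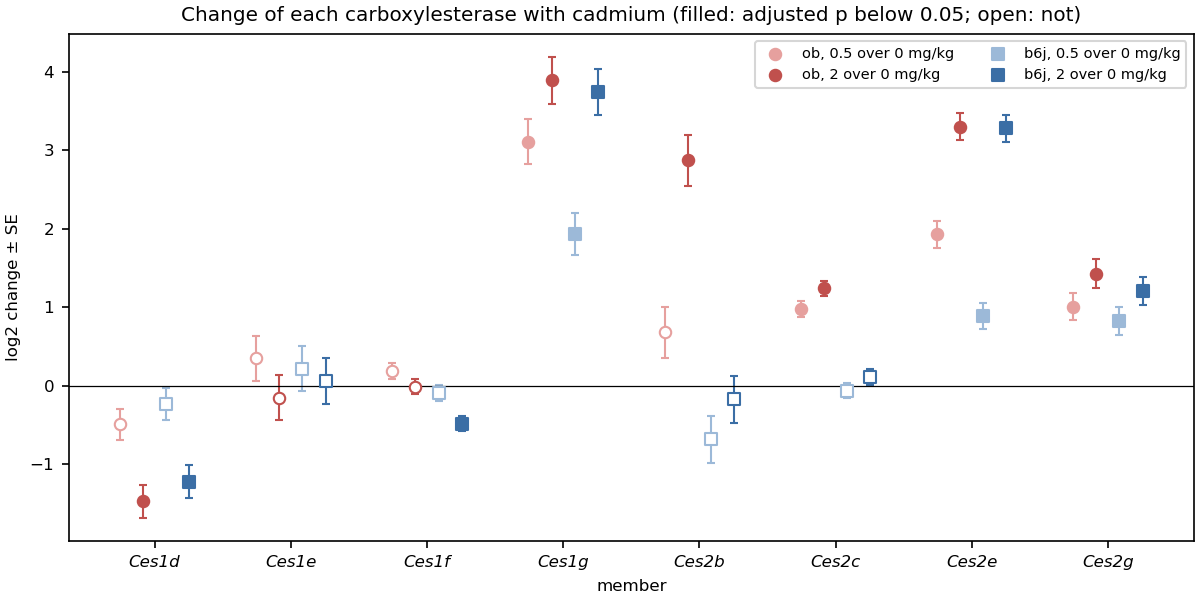
Log2 change ± SE over the controls of the same kind of mouse for the 8 tested carboxylesterases (y axis log2 change, x axis genes), with ob and b6j at 0.5 and 2 mg/kg; filled points had an adjusted p under 0.05 and open points did not. Ces1g and Ces2e lay above 3 at 2 mg/kg in both, Ces1d lay below -1, and Ces2b and Ces2c lay well above 0 in ob only.

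Among the Ces2 genes, Ces2e, a paralogue known in mouse liver and intestine, rose at both doses in both kinds of mice. Its ob libraries held 27.3 to 46.0 CPM (median 32.3), 115 to 147 CPM (median 128) and 233 to 495 CPM (median 318) at 0, 0.5 and 2 mg/kg. Its b6j libraries held 14.0 to 20.5 CPM (median 16.4), 24.7 to 38.2 CPM (median 30.3) and 117 to 196 CPM (median 159). No 2 dose groups of 1 kind of mouse overlapped, and at each dose every ob library lay above every b6j library.

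Ces2e rose 3.82-fold (log2 1.93 ± 0.17, adjusted p = 1.41e-10) and 9.82-fold (3.30 ± 0.17, adjusted p = 1.04e-16) in ob at 0.5 and 2 mg/kg. In b6j it rose 1.86-fold (0.89 ± 0.16, adjusted p = 0.00277) and 9.71-fold (3.28 ± 0.17, adjusted p = 1.39e-16). The ob response exceeded the b6j response by 1.04 ± 0.23 at 0.5 mg/kg (adjusted p = 0.0249), and at 2 mg/kg the difference was 0.02 ± 0.23 (adjusted p = 0.98). The call at 0.5 mg/kg was lost on leaving out any 1 of 8 libraries (0.97 to 1.01, adjusted p 0.0527 to 0.0659): ob control replicates 1, 3 and 4, ob 0.5 mg/kg replicate 6, b6j control replicate 5 and b6j 0.5 mg/kg replicates 1, 2 and 3.

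Ces2c, a mouse liver and intestine enzyme that hydrolyses di- and triacylglycerol, was the most abundant Ces2 gene and split the ob and b6j kidneys. Its ob libraries held 233 to 300 CPM (median 272), 430 to 627 CPM (median 507) and 516 to 746 CPM (median 618) at 0, 0.5 and 2 mg/kg, against 507 to 688 CPM (median 613), 485 to 668 CPM (median 576) and 561 to 750 CPM (median 639) in b6j. Every ob control lay below every other library of either kind, and the treated ob libraries overlapped the b6j libraries at the same dose.

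Ces2c rose 1.97-fold (log2 0.98 ± 0.10, adjusted p = 6.59e-09) and 2.36-fold (1.24 ± 0.10, adjusted p = 8.37e-12) in ob at 0.5 and 2 mg/kg. In b6j its changes were -0.06 ± 0.10 (adjusted p = 1.0, 95% interval -0.25 to 0.14) and 0.11 ± 0.10 (adjusted p = 0.472, interval -0.08 to 0.30). The responses differed by 1.04 ± 0.14 at 0.5 mg/kg (adjusted p = 4.66e-05) and by 1.13 ± 0.14 at 2 mg/kg (adjusted p = 1.14e-05). The further step from 0.5 to 2 mg/kg in ob was 1.19-fold (adjusted p = 0.0469) and was lost on leaving out any of 14 single libraries (log2 0.20 to 0.27, adjusted p 0.0515 to 0.135).

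Ces2b, which stands next to Ces2c on the chromosome, was far lower in level and followed the same contrast between ob and b6j. The ob libraries held 2.37 to 4.99 CPM (median 3.57), 4.17 to 10.4 CPM (median 5.38) and 10.6 to 68.6 CPM (median 19.7), against 9.81 to 30.1 CPM (median 19.4), 11.3 to 15.1 CPM (median 12.2) and 14.3 to 21.8 CPM (median 18.0) in b6j. Every ob library at 2 mg/kg lay above every ob control, and the other 5 without replicate 5 held 10.6 to 30.6 CPM. The b6j dose groups overlapped one another.

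Ces2b at 2 mg/kg rose 7.31-fold in ob (log2 2.87 ± 0.32, adjusted p = 1.31e-08), and the lowest value with any 1 library left out was 2.36. In b6j the change was -0.17 ± 0.30 (adjusted p = 0.732, 95% interval -0.76 to 0.41). The responses differed by 3.04 ± 0.44 (adjusted p = 9.03e-05), and by 2.54 to 3.21 with 1 library left out. At 0.5 mg/kg the difference of 1.37 ± 0.44 missed the threshold (adjusted p = 0.234) and passed without replicate 5 of the ob 2 mg/kg group (1.36, adjusted p = 0.0276).

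Ces2g, at the end of the member genes of the Ces2 row, rose with dose in both kinds of mice and was higher in ob throughout. The ob libraries held 11.7 to 16.5 CPM (median 14.7), 24.5 to 31.6 CPM (median 29.1) and 23.3 to 68.4 CPM (median 33.1), where replicate 5 gave the 68.4 and the other 5 gave 23.3 to 41.4 CPM. Its b6j libraries held 3.96 to 7.33 CPM (median 6.34), 8.24 to 12.9 CPM (median 11.1) and 11.3 to 17.4 CPM (median 13.6). No treated library overlapped a control of its kind, and no b6j library reached the ob libraries of its dose.

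Ces2g rose 2.01-fold (log2 1.01 ± 0.17, adjusted p = 0.000186) and 2.70-fold (1.43 ± 0.18, adjusted p = 6.3e-08) in ob at 0.5 and 2 mg/kg, and 1.78-fold (0.83 ± 0.18, adjusted p = 0.0206) and 2.32-fold (1.21 ± 0.18, adjusted p = 3.98e-06) in b6j. The b6j call at 0.5 mg/kg was lost without b6j control replicate 1 or 5 or b6j 0.5 mg/kg replicate 1, 5 or 6 (0.74 to 0.79, adjusted p 0.0586 to 0.0888). The responses differed by 0.22 ± 0.25 at 2 mg/kg (adjusted p = 0.695). The step from 0.5 to 2 mg/kg missed the threshold in ob (0.43 ± 0.17, adjusted p = 0.057) and in b6j (0.38 ± 0.18, adjusted p = 0.137). The ob step passed when 1 of 8 libraries was left out (0.42 to 0.55, adjusted p 0.0127 to 0.0497), and the b6j step without replicate 5 of the ob 2 mg/kg group (0.38, adjusted p = 0.0324).

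Ces2a, a liver diacylglycerol and triacylglycerol hydrolase of the mouse, was near absence in kidney. Its highest library had 72 counts, 2.28 CPM, in b6j replicate 5 at 2 mg/kg, the library with raised hepatocyte transcripts, against 0 to 0.207 CPM in the other 5 of that group. Of 6 libraries in each group, 4, 3 and 6 had any count in ob at 0, 0.5 and 2 mg/kg and 6, 3 and 5 in b6j. A count of 3, taken here as the floor, corresponded to 0.0851 to 0.112 CPM, so most of these values lay at or near it.

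Without cadmium, ob and b6j kidneys already differed in these genes. Of the 8 tested, 2 were higher and 3 lower in ob controls than in b6j controls, where 6.6% of all genes were called higher and 8.93% lower. Ces2g was 2.34-fold higher (log2 1.22 ± 0.18, adjusted p = 5.61e-06) and Ces2e 2.03-fold higher (1.02 ± 0.16, adjusted p = 2.43e-05). Ces2b was 5.41-fold lower (-2.44 ± 0.32, adjusted p = 8.5e-07), Ces2c 2.28-fold lower (-1.19 ± 0.10, adjusted p = 8.06e-11) and Ces1f 1.53-fold lower (-0.62 ± 0.10, adjusted p = 1.93e-05). Ces1e was called higher as well once replicate 5 of the ob 2 mg/kg group was left out. Marker lists differed between the controls too. The S3 sum ran from 1923 to 2961 CPM in ob and from 4388 to 5749 CPM in b6j. Of its 8 markers, 1 was called higher and 3 lower in ob. Proximal tubule had 2 of 10 lower, podocyte 5 of 5 higher and endothelial 3 of 4 higher, while distal nephron and macrophage had none called. The part of these differences in the carboxylesterase results was not tested.

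At 0.5 mg/kg, 3 members were higher and 2 lower in ob than in b6j, with 4.58% of genes called higher and 5.06% lower. Ces2e stood 4.17-fold higher (log2 2.06 ± 0.17, adjusted p = 3.56e-11) and Ces2g 2.64-fold higher (1.4 ± 0.18, adjusted p = 6.89e-07), and Ces1g was the third. Ces2b was 2.1-fold lower (-1.07 ± 0.31, adjusted p = 0.0214), a call lost without ob 0.5 mg/kg replicate 1 (-1.01, adjusted p = 0.0537) or 5 (-1.0, adjusted p = 0.0514). Ces1f was lower by a log2 change of -0.34 ± 0.10 (adjusted p = 0.022), a call lost without ob 0.5 mg/kg replicate 1 or 2 or b6j 0.5 mg/kg replicate 6 (-0.30 to -0.28, adjusted p 0.0641 to 0.0736). The Ces2c difference at this dose was -0.15 (adjusted p = 0.4).

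At 2 mg/kg, 2 members were higher and none lower in ob than in b6j, with 7.9% of genes called higher and 8.53% lower. These were Ces2g, 2.72-fold higher (log2 1.44 ± 0.18, adjusted p = 4.26e-07), and Ces2e, 2.05-fold higher (1.04 ± 0.16, adjusted p = 2.17e-05). Ces1d, which fell in both, differed by -0.00 (adjusted p = 0.992), and this value changed sign under other settings. Ces2c differed by -0.06 (adjusted p = 0.719) and Ces2b by 0.61 ± 0.30 (adjusted p = 0.159). The test of unequal responses called 2 of the 8 members at 0.5 mg/kg (Ces2c and Ces2e), where 0.369% of genes were called with a higher response in ob and 0.0165% with a lower one. It called 2 at 2 mg/kg (Ces2b and Ces2c), where 1.06% were called with a higher response in ob and 1.01% with a lower one. All 4 of these calls were in the direction of a higher response in ob, but Ces2c was called at both doses, whose tests share the same controls.

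The make-up of carboxylesterase transcripts, counted per kilobase of exon, shifted with dose more than the total did. The summed level of the 9 genes was 737 ± 49.9, 924 ± 102 and 941 ± 158 CPM per kb (SD, n = 6) in ob at 0, 0.5 and 2 mg/kg, and 949 ± 93.7, 924 ± 144 and 914 ± 67.5 CPM per kb in b6j. Ces1d made up 38.7%, 22.0% and 10.9% of that sum in ob and 25.3%, 21.9% and 11.3% in b6j. Ces1g made up 1.14%, 7.8% and 12.8% in ob and 1.05%, 4.2% and 14.9% in b6j. These shares are given as a description, with no test.

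Ces2c took 15.7%, 24.6% and 29.2% of the sum in ob and 27.8%, 27.6% and 31.1% in b6j. Ces2e took 1.71%, 5.24% and 13% in ob and 0.655%, 1.25% and 6.63% in b6j. Ces1f, Ces1e, Ces2b and Ces2g took 32.2%, 9.87%, 0.148% and 0.539% in ob controls and 38.4%, 5.99%, 0.614% and 0.18% in b6j controls. Ces2a took the smallest share in every group.

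The order of levels per kilobase of exon changed as well, but it depends on the length used. Ces1f has 3285 bases of exon and a longest transcript of 1926 bases, and Ces1d has 2369 and 2004. In plain CPM Ces1f had the highest mean in ob controls (780, Ces1d 676). It also did at 2 mg/kg in ob (773, Ces2c 626) and in b6j (859, Ces2c 653). In ob controls Ces1d led at 285 ± 26.3 CPM per kb, ahead of Ces1f at 237 ± 20.6, Ces2c at 116 ± 11.1 and Ces1e at 72.6 ± 4.53, with Ces2e (12.6 ± 2.73) and Ces1g (8.28 ± 2.34) far below. In ob at 2 mg/kg the order was Ces2c at 272 ± 36.8, Ces1f at 235 ± 29.6, Ces2e at 124 ± 40.4, Ces1g at 123 ± 38.5, Ces1d at 103 ± 39.8 and Ces1e at 65.6 ± 31.1 CPM per kb. There, neighbours from Ces2c to Ces1e lay within 1 SD or little more of each other except for the gap below Ces1f.

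In b6j controls Ces1f led at 364 ± 33.2 CPM per kb, ahead of Ces2c (264 ± 25.6) and Ces1d (241 ± 37.4), which lay within 1 SD of each other, and of Ces1e (56.9 ± 6.42). In b6j at 2 mg/kg Ces2c (284 ± 34.0) and Ces1f (262 ± 20) lay within 1 SD, as did Ces1e (59.2 ± 7.5) and Ces2e (60.3 ± 10.5), while Ces1g reached 136 ± 20 and Ces1d stood at 103 ± 10.4 CPM per kb.

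**Figure D3:**
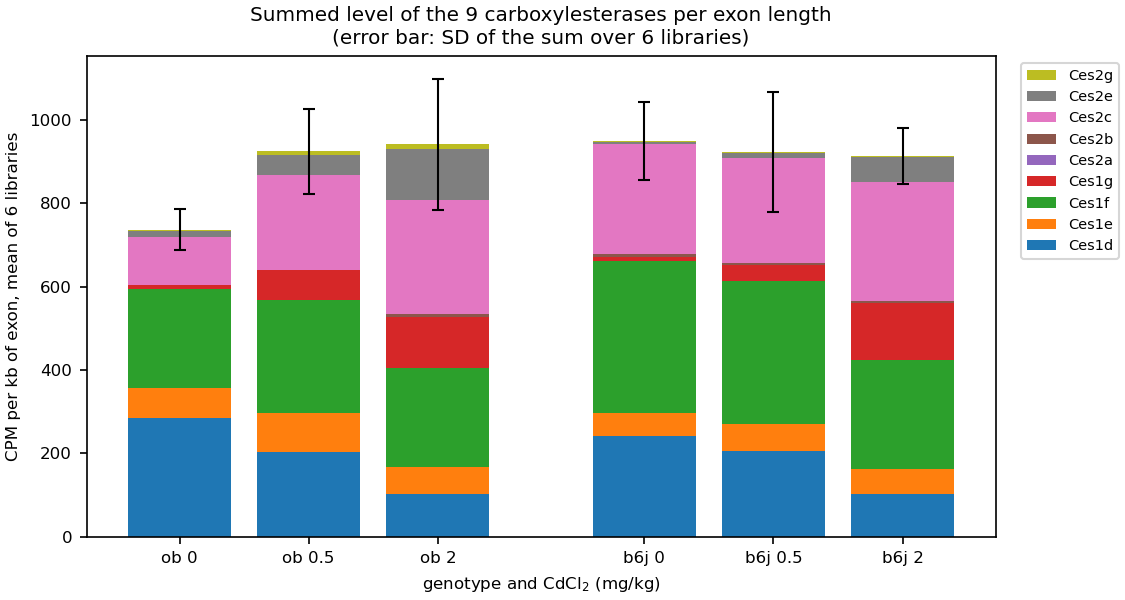
Summed level of the 9 carboxylesterases in CPM per kb of exon (y axis) for each dose in ob (left) and b6j (right), stacked by gene as group means of 6 libraries, with the SD of the sum as the error bar. The Ces1d layer thins and the Ces1g and Ces2e layers widen with dose, and the ob control stack, at 737 CPM per kb, is the shortest of the 6.

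The other carboxylesterase genes are 11 in number, of which 8 were tested. At 0.5 mg/kg 3 of these were called higher in ob, where 3.55% of all genes were, and none in b6j (0.297%). At 2 mg/kg 5 were called higher and 1 lower in both ob and b6j. The shares over all genes were then 20.4% higher and 18% lower in ob, and 12.3% and 11.4% in b6j. Of the 8 tested, Ces1a, Ces1b and Ces1h passed the expression filter only through cadmium-treated libraries. The filter asked for 0.324 CPM in 6 libraries, and 0, 2 and 2 of the 12 controls reached that level. The choice of genes tested therefore favoured higher calls, and the count and the tests of these 3 genes are a description. In ob at 2 mg/kg 6 were higher and none lower without replicate 5 of that group. The 3 called at 0.5 mg/kg in ob were Ces1h (log2 2.52 ± 0.40, adjusted p = 4.48e-05), Ces2f (1.69 ± 0.37, adjusted p = 0.00357) and Ces1a. Ces1a had no count in any of the 12 controls. At 2 mg/kg its mean was 4.98 ± 2.99 CPM in the ob group, with 5.26 ± 0.71 CPM in the b6j group (SD, n = 6), which is at least 54.5-fold and at least 55.1-fold above a floor of 3 counts per control library. Its mean at 0.5 mg/kg was 1.02 ± 0.39 CPM in ob, at least 11.2-fold above that floor, and lay under the floor in b6j. Its exons overlap those of a gene on the opposite strand, and no strand option is given for the counting, so reads from the overlapping stretch cannot be told apart from that gene's. Of the 1931 windows of 50 bases along its transcript, 94 also occur in that gene's transcripts on either strand.

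Ces1b averaged 12.8 ± 10.7 CPM at 2 mg/kg against 0.331 ± 0.262 CPM without cadmium in ob kidneys. The b6j averages were 4.8 ± 1.95 CPM at 2 mg/kg against 0.113 ± 0.0747 CPM without cadmium. It rose 38.4-fold in ob (log2 5.26 ± 0.51, adjusted p = 4.93e-10) and 41.7-fold in b6j (5.38 ± 0.57, adjusted p = 7.25e-09). Ces1h rose 24.8-fold in ob (4.63 ± 0.40, adjusted p = 4.06e-11) and 32.3-fold in b6j (5.02 ± 0.42, adjusted p = 3.68e-11), and it too overlaps a gene on the opposite strand. Because Ces1b and Ces1h passed the filter only through cadmium-treated libraries, these tests describe the values and lend no support. The Ces1b mean in b6j controls lay near the floor of 3 counts, 0.0954 CPM, so its fold there is imprecise. Ces2f, next to the Ces2 members, rose 8.66-fold in ob (3.12 ± 0.38, adjusted p = 4.65e-08) and 7.75-fold in b6j (2.95 ± 0.39, adjusted p = 5.6e-07).

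Ces1c, the carboxylesterase secreted into mouse plasma, rose 7.75-fold in ob (log2 2.95 ± 0.62, adjusted p = 0.000255) and 10.6-fold in b6j (3.41 ± 0.64, adjusted p = 0.000114). In ob at 2 mg/kg, replicate 5 held 2.24 CPM of Ces1c and the other 5 held 5.43 to 28.2 CPM. Hepatocyte transcripts were spread in those 5 as well, with Alb at 25.2 to 180 CPM and Cyp3a11 at 1.68 to 11.9 CPM. The part of liver transcripts in the Ces1c rise was not tested. The highest b6j library for Ces1c at 2 mg/kg was replicate 5 at 43.8 CPM, against 5.59 to 9.85 CPM in the other 5. Without that library, which also had the raised hepatocyte transcripts, the b6j change was 2.59 (adjusted p = 0.00114). Ces3a, a liver triacylglycerol hydrolase, was called in the step from 0.5 to 2 mg/kg in b6j alone (2.78 ± 0.73, adjusted p = 0.00656). The same library held 21.2 CPM of it against 0.517 to 1.82 CPM, and without it the step was 0.67 (adjusted p = 0.463).

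Ces2h was 3.04-fold lower in ob controls than in b6j controls (log2 -1.60 ± 0.22, adjusted p = 1.94e-06) and fell in b6j at 2 mg/kg (-0.73 ± 0.21, adjusted p = 0.0116). Its lower call in ob at 2 mg/kg (-0.56 ± 0.23) stood at the threshold and was lost on leaving out any of 26 single libraries (-0.59 to -0.43, adjusted p 0.05 to 0.134). The pseudogene Ces2d-ps, which shares many sequence windows with Ces2c, was called in no comparison and averaged 0.519 to 0.836 CPM over the 6 groups. Ces3b, Ces4a and Ces5a were too low to test.

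**Figure D4:**
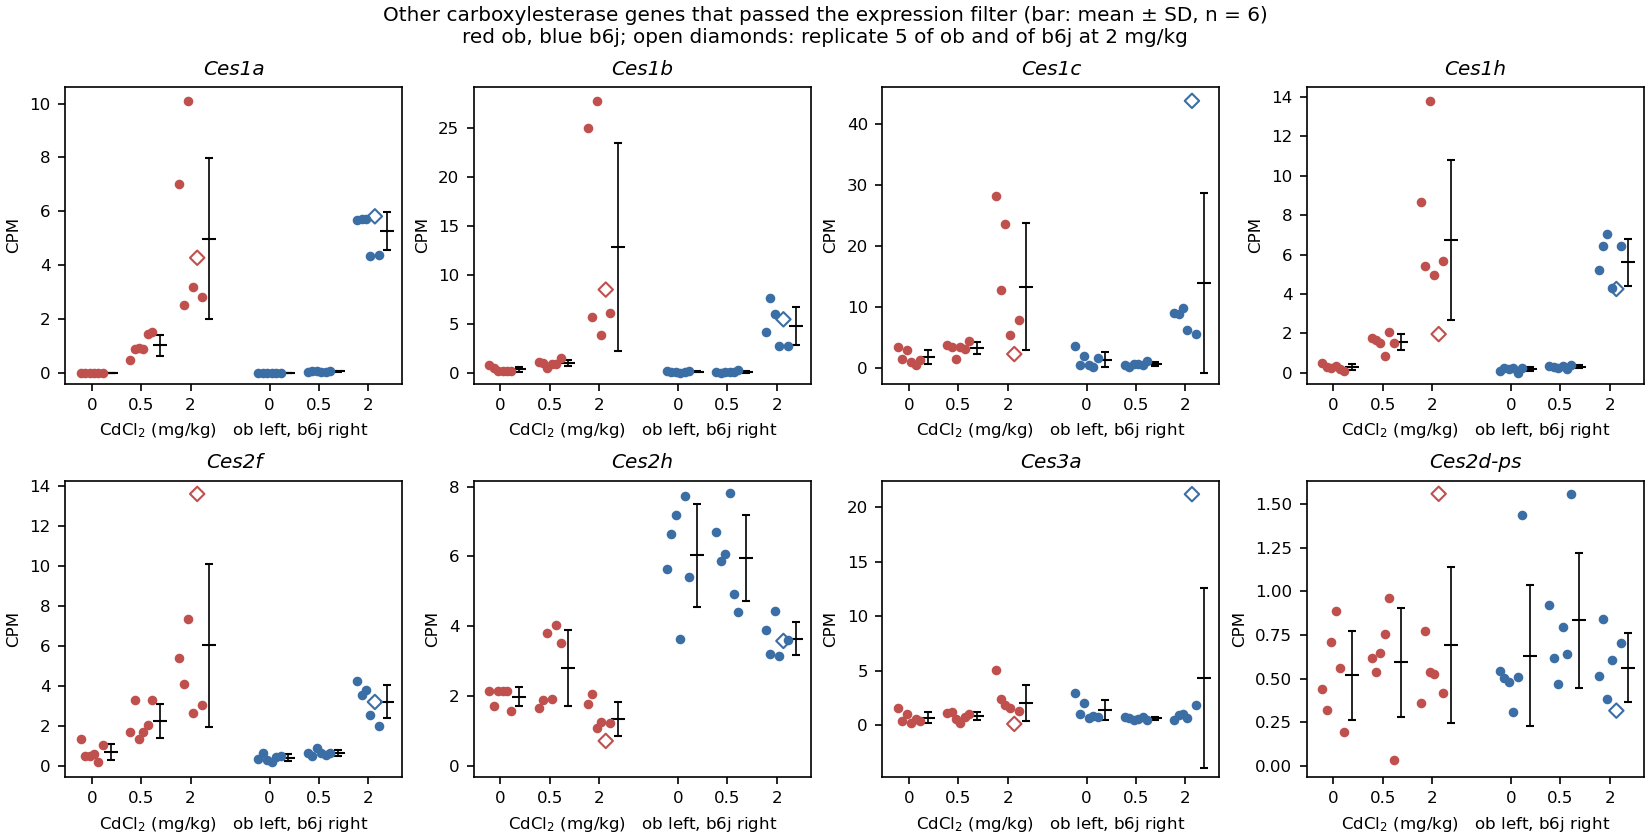
CPM in every library (y axis) at 0, 0.5 and 2 mg/kg CdCl2 (x axis) for the 8 tested carboxylesterase genes beyond the 9, with ob at left in red and b6j at right in blue, bars for mean ± SD (n = 6) and open diamonds for replicate 5 of each 2 mg/kg group. Ces1a stays at 0 in all 12 controls, and the b6j diamond stands apart for Ces1c (43.8 CPM) and Ces3a (21.2 CPM).

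Along the chromosome, genes next to each other went different ways. In the Ces1 row, Ces1d fell, Ces1e was not called and Ces1g rose at 2 mg/kg, although they lie within the same stretch on the same strand. In the Ces2 row, Ces2b and Ces2c responded in ob, and Ces2e, Ces2f and Ces2g were called higher in both, with Ces2h lower in b6j.

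**Figure D5:**
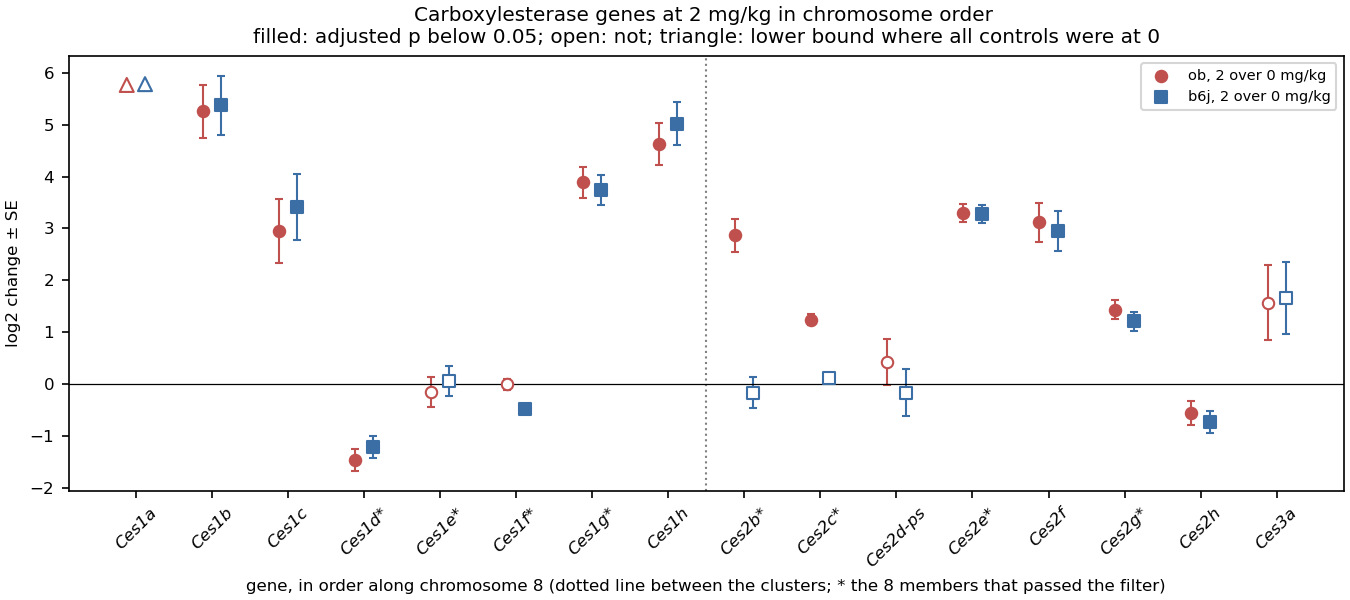
Log2 change ± SE at 2 mg/kg over controls (y axis) for the 16 tested carboxylesterase genes in their order along chromosome 8 (x axis, order only), with ob and b6j side by side; a dotted line parts the Ces1 row from the Ces2 and Ces3 row, asterisks mark the 8 tested genes of the 9, and triangles are lower bounds for Ces1a. Ces1d lies below -1 beside Ces1c, which rose, and Ces1e, which was not called, and Ces2b and Ces2c stand apart between ob and b6j.

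Lists of related genes gave the setting of these changes, and no test of a list was run. At 2 mg/kg 20.4% of all genes were called higher and 18% lower in ob, and 12.3% and 11.4% in b6j. At 0.5 mg/kg the shares were 3.55% and 0.737% in ob, and 0.297% and 0.0275% in b6j. Of 12 other ester and epoxide hydrolases, 2 were higher and 6 lower in ob at 2 mg/kg, and 2 higher and 4 lower in b6j. Ephx1, the microsomal epoxide hydrolase, rose in both (log2 2.66 ± 0.18, adjusted p = 5.87e-14 in ob, and 2.06 ± 0.17, adjusted p = 3.5e-11 in b6j), and Faah, which breaks down fatty acid amides, fell in both (-0.54 ± 0.10, adjusted p = 5.29e-05, and -0.52 ± 0.10, adjusted p = 0.000147). In ob, Ache (acetylcholinesterase) fell by 0.90 ± 0.15 (adjusted p = 1.35e-05). Only Ephx1 was called at 0.5 mg/kg in ob, where it was higher (1.09 ± 0.17, adjusted p = 3.26e-05), and none was called in b6j. The 2 mg/kg counts without replicate 5 of the ob group were 2 higher and 7 lower in ob, and 3 higher and 6 lower in b6j.

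Of 16 genes of neutral lipid hydrolysis and storage, 5 were higher and 3 lower in ob at 2 mg/kg and 2 higher and 3 lower in b6j. The shares over all genes were 20.4% higher and 18% lower in ob, and 12.3% and 11.4% in b6j. Dgat2, which makes triacylglycerol, fell in both (log2 -0.53 ± 0.08, adjusted p = 1.86e-06 in ob, and -0.45 ± 0.08, adjusted p = 4.45e-05 in b6j). Lipc, hepatic lipase, rose in both (3.6 ± 0.60, adjusted p = 1.15e-05, and 3.15 ± 0.59, adjusted p = 0.000133), and its b6j change was 2.58 (adjusted p = 0.000481) without both replicate 5 libraries of the 2 mg/kg groups. Lpl, lipoprotein lipase, fell in both (-0.73 ± 0.17, adjusted p = 0.000814, and -0.79 ± 0.17, adjusted p = 0.000595). Without replicate 5 of the ob 2 mg/kg group the counts were 3 higher and 4 lower in ob, and 2 higher and 5 lower in b6j.

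Nuclear receptors and NRF2 control many drug-metabolising genes. Of 12 such regulators, 2 were higher and 1 lower in ob at 2 mg/kg, and 2 higher and 2 lower in b6j. Over all genes the shares were 20.4% higher and 18% lower in ob, and 12.3% and 11.4% in b6j. Nr1i2, the pregnane X receptor, rose in ob (log2 0.70 ± 0.18, adjusted p = 0.00245) and in b6j (0.89 ± 0.19, adjusted p = 0.000471), and it was higher in ob controls than in b6j controls (1.10 ± 0.19, adjusted p = 5.31e-05). Hnf4a, a factor of epithelial and liver genes, fell in ob (-0.61 ± 0.12, adjusted p = 0.000125). The transcript of NRF2 itself, Nfe2l2, named after its values were seen, had a log2 change of 0.14 ± 0.11 in ob (adjusted p = 0.336) and of -0.02 in b6j (adjusted p = 0.936). With replicate 5 of the ob 2 mg/kg group left out, 1 regulator was higher and 2 lower in ob, and 2 higher and 4 lower in b6j.

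All 12 reference targets of NRF2 were called higher at 2 mg/kg in both ob and b6j, and 10 of 12 in ob and 4 of 12 in b6j at 0.5 mg/kg. These counts stayed at 12 and 12 without replicate 5 of the ob 2 mg/kg group. Among them Gstm3, a glutathione transferase, rose by a log2 change of 7.85 ± 0.39 in ob and 7.25 ± 0.40 in b6j, and Cbr3, a carbonyl reductase, by 4.25 ± 0.21 and 4.91 ± 0.22. The median log2 change of the 12 was 2.71 in ob and 3.14 in b6j at 2 mg/kg.

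Across the 36 libraries, which differ in dose, kind of mouse and depth, each member's nearest genes by Pearson correlation of log2 CPM are given as a description. Ces2e had the closest: Akr1c12 (r = 0.98), Tm6sf2 (0.979) and Maoa (0.975). After the group means were taken off these were 0.497, 0.522 and 0.27. Ces1g lay nearest to Ugt2b35 (0.938), Hmox1 (0.934) and Mt1 (0.933), and after the group means were taken off these were 0.395, -0.083 and -0.19. Ces1d lay nearest to Mdh1 (0.958), Slc37a4 (0.957) and Fggy (0.952), and these were 0.901, 0.915 and 0.939 after the group means were taken off. The latter values include replicate 5 of the ob 2 mg/kg group, which lay far below its group for Ces1d, and were not computed without it. Without that library, and with group means left in, the 3 correlations were 0.928, 0.926 and 0.935.

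Ces1e lay nearest to Nepn (r = 0.973), Rida (0.96) and As3mt (0.959), and without replicate 5 of the ob 2 mg/kg group these were 0.837, 0.8 and 0.749. Ces1f lay nearest to Zfp706 (0.898), Psmc2 (0.896) and Slco3a1 (0.896), and Ces2c to Glb1 (0.917), Anpep (0.913) and Cdc42se1 (0.909). With the group means taken off, the Ces1f values were 0.61, 0.649 and 0.742, and the Ces2c values 0.692, 0.559 and 0.481. Ces2b lay nearest to Cpe (0.896), Ctps (0.896) and Arfgap3 (0.874), and Ces2g to Serpinb6a (0.921), Arhgap33os (0.915) and Gsto1 (0.913). With the group means taken off, the Ces2b values were 0.717, 0.672 and 0.657, and the Ces2g values 0.585, 0.692 and 0.408. Members were left out as candidates for these nearest genes.

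Between members, Ces1g and Ces2e correlated at 0.85 across the 36 libraries and at 0.16 after the group means were taken off. Ces1d and Ces1e correlated at 0.66 and at 0.92 after the group means were taken off. Across the 35 libraries without replicate 5 of the ob 2 mg/kg group, and with group means left in, they correlated at 0.23. Ces1f and Ces2c correlated at 0.47 and at 0.86 after the group means were taken off. At 2 mg/kg over controls, Ces2c was called higher in ob only and Ces1f lower in b6j only. Ces2e with Ces2g, and Ces2b with Ces2c, correlated at 0.85 and 0.81, and at 0.59 and 0.55 after the group means were taken off. The latter values include replicate 5 of the ob 2 mg/kg group, which lay above its group for Ces2g and Ces2b, and were not computed without it. With group means left in, both pairs correlated at 0.84 without that library.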

How the data were processed

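Counts per gene were made by the authors with featureCounts 1.4.6-p2 on Ensembl 96 gene models, per the file headers. The submitters' processing notes name bcl2fastq, Trimmomatic, FastQC and STAR and the build GRCm38. No strand, pairing or multi-mapping option is given in the sources used here. Total RNA was taken from frozen kidneys and passed a quality threshold, per the labels' protocols.

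From the deposited counts, edgeR 4.0.16 in R 4.3.3 kept 18180 of 55536 genes (20448 had no count in any library), scaled libraries by TMM (factors 0.893 to 1.122) and fitted 1 quasi-likelihood model to all 36 libraries, with contrasts of the 6 group means. P-values were adjusted by Benjamini and Hochberg across all genes tested in a comparison, and a call is an adjusted p under 0.05. CPM values are counts divided by the scaled library size in units of 1000000 reads, and log2 CPM used a prior count of 2. CPM per kb divides by exon length. Standard errors are those of the log2 change. Sequences came from GENCODE M21 transcripts and RefSeq promoters.

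Alternatives were DESeq2 1.42.0, limma-voom (limma 3.58.1) with sample weights, other scalings and filters, compared groups alone, a replicate block and each library left out in turn. Leaving out both replicate 5 libraries of the 2 mg/kg groups together, and the list counts without them, were added after seeing the data. The 9 members and all gene lists were chosen with earlier results of these data known. The text names every member, every other carboxylesterase gene, up to 4 genes per list by smallest p and the 3 genes nearest each member by correlation. The method was tested on simulated counts in which no library stood apart. That test therefore does not cover a library such as replicate 5 of the ob 2 mg/kg group. No 2 libraries of a group agreed within sampling noise (lowest chi-square per gene 7.41). Of a joined table, 36 columns were not used. Library totals of 26783936 to 37244058 set the precision, and floors of 3 counts cover counting error only.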

Additional observations from a re-analysis of the deposited data

Results flagged for a closer look

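Across 54 sets of 6 libraries (9 genes in 6 groups), 6 had 1 library whose gap to its nearest neighbour exceeded Dixon's 95% critical share of the range. Chance marks about 1 in 20 such sets. Replicate 5 of the ob 2 mg/kg group was the far library for Ces1d (62.2 CPM), Ces1e (9.09 CPM) and Ces2b (68.6 CPM), and its proximal tubule and injured tubule sums are given in the report. Replicate 6 of the ob 0.5 mg/kg group was the far library for Ces2b (10.4 CPM) and Ces2a (0.216 CPM), and the Ces2a value rests on a few counts. Replicate 5 of the b6j 2 mg/kg group was the far library for Ces2a (2.28 CPM), beside its raised hepatocyte transcripts.

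The response to cadmium differed between ob and b6j, by the test of that difference, for Ces2b at 2 mg/kg (log2 3.04, adjusted p = 9.03e-05), for Ces2c at 0.5 mg/kg (1.04, adjusted p = 4.66e-05) and at 2 mg/kg (1.13, adjusted p = 1.14e-05), and for Ces2e at 0.5 mg/kg (1.04, adjusted p = 0.0249).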

How the results depend on the processing

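Of 88 results of members, 43 were called, and 36 of these were called under all 45 other settings; no called value changed sign. The count of members called was 7 (against 4) in ob at 0.5 mg/kg when the compared groups were fitted alone, and 1 (against 2) for unequal responses at 0.5 mg/kg with library size alone. With 1 library left out, the counts ranged from 4 to 6 (ob at 0.5 mg/kg), 6 to 6 (ob at 2), 3 to 7 (ob at 2 over 0.5), 2 to 3 (b6j at 0.5), 5 to 5 (b6j at 2), 4 to 6 (b6j at 2 over 0.5), 5 to 6, 3 to 6 and 2 to 3 (ob over b6j at 0, 0.5 and 2), and 1 to 3 and 2 to 3 (unequal responses at 0.5 and 2). Uncalled values near 0 changed sign. For ob over b6j these were Ces1d at 0.5 mg/kg with library size alone (0.04) and limma-voom (0.09), -0.10 to 0.13 with 1 library left out; Ces1d at 2 mg/kg with relative log expression, a stricter filter and DESeq2 (0.01 each), library size alone (0.03), no filter and the compared groups alone (0.0 each), limma-voom (0.19) and without both replicate 5 libraries (0.2), -0.11 to 0.21 with 1 left out; and Ces2b at 2 mg/kg with limma-voom (-0.02). In ob at 2 mg/kg these were Ces1e with limma-voom and without both replicate 5 libraries (0.11 each), -0.26 to 0.11 with 1 left out, and Ces1f with relative log expression, a stricter filter, DESeq2 and without both replicate 5 libraries (0.02 each), limma-voom (0.01) and compared groups alone (0.0), -0.07 to 0.03 with 1 left out. In b6j at 2 mg/kg Ces1e ran from -0.02 to 0.10 with 1 left out. For unequal responses at 2 mg/kg these were Ces1e with limma-voom and without both replicate 5 libraries (0.05 each), -0.32 to 0.06 with 1 left out; Ces2e with library size alone (-0.09), limma-voom (-0.13) and without both (-0.02), -0.13 to 0.13; Ces2g with limma-voom (-0.08) and without both (-0.01), -0.02 to 0.34; and Ces1g, -0.07 to 0.35. The causes were not tested. Replicate numbers did not pair the libraries (correlation of deviations -0.184 to 0.242), and with a replicate block the counts of members called, in the order above, were 4, 6, 5, 3, 5, 4, 5, 5, 2, 2 and 2.

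Over all genes, the number called moved by over 1.5 times in several comparisons. With the compared groups alone it was 1937 (against 779) in ob at 0.5 mg/kg, 3879 (6975) in ob at 2, 1889 (5407) for ob at 2 over 0.5, 120 (59) in b6j at 0.5, 5007 (2823), 3044 (1753) and 461 (2987) for ob over b6j at 0, 0.5 and 2, and 321 (70) and 194 (376) for unequal responses at 0.5 and 2. With limma-voom these were 2337 in ob at 0.5, 232, 6949 (4305) and 5176 (3143) in b6j at 0.5, 2 and 2 over 0.5, 5629 and 3929 for ob over b6j at 0 and 0.5, and 805 and 1074 for unequal responses. DESeq2 gave 106, 148 and 748 for b6j at 0.5 and unequal responses at 0.5 and 2. Without replicate 5 of the ob 2 mg/kg group it was 1780 in ob at 0.5, 157 in b6j at 0.5, 5267 for b6j at 2 over 0.5, 4781 and 3519 for ob over b6j at 0 and 0.5, and 254 and 758 for unequal responses. For unequal responses at 2 mg/kg it was 590 with library size alone and 239 with no filter. Library size alone moved the split in ob to 428 higher and 649 lower (645 and 134) at 0.5 mg/kg and to 4285 and 1687 (2772 and 2635) for 2 over 0.5, where it moved the median of all genes by -0.11 and 0.123.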
